A study of Mus musculus with 59 samples.

Results

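The Igh P4 allele carries the PAIR4 element on its own at the point of a large deletion, and its comparison with the wild type asks which VH genes were recombined in pro-B cells that had this allele on both chromosomes. The members were the 6 VDJ-seq libraries whose genotype label is Igh(P4/P4) or, for the wild-type control set that goes with them, Igh(+/+), with 3 libraries in each group. They are 6 of the 48 VDJ-seq libraries and of the 59 samples of the whole study, which took apart the PAIR4 regulatory element of the mouse heavy-chain locus. All libraries were made from genomic DNA of pro-B cells that were sorted ex vivo from bone marrow by their surface markers.

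The Igh +/+ mice carried the unmodified locus. The Igh P4/P4 mice lacked 890 kb of the distal VH gene cluster on both chromosomes, with all PAIR elements and the VH genes in between, and had PAIR4 in its forward orientation placed at the deletion point together with the cDNA of its spliced lncRNA and polyadenylation sites. PAIR4 is normally followed by the VH8-7 gene and the V8.7E element, and neither was part of this insert. For comparison, Igh P4V/P4V mice carried the same deletion and PAIR4 with both VH8-7 and V8.7E, and Igh Δ890/Δ890 mice carried the deletion without any PAIR4 insert but with a blasticidin resistance gene lacking a promoter at the deletion point, each with 3 libraries. The Igh P4V/P4V libraries share the control set of the Igh P4/P4 libraries, whereas the Igh Δ890/Δ890 libraries have 3 Igh +/+ libraries of their own. The sets follow the experiment numbers in the labels. The P4 and P4V alleles were made by Cre-mediated exchange in hybrid C57BL/6 × 129/Sv ES cells on the C57BL/6 chromosome, and the mutant strains were backcrossed to C57BL/6. The age of the mice used for VDJ-seq is not given in the sources used here, and nothing in the labels pairs single mutant with single wild-type libraries. The p-values therefore measure only the spread between libraries.

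The mouse Igh locus holds a long array of VH genes upstream of the DH, JH and constant segments. In pro-B cells the RAG recombinase first joins a DH to a JH segment and then a VH gene to this DJH segment, and loop extrusion brings VH genes of all positions to the recombination centre. The genes closest to DH mostly belong to the VH5 and VH2 (Q52) families, and the distal part is dominated by the large VH1 (J558) family, among which the VH8 genes and the PAIR elements are interspersed. PAIR elements are intergenic repeats that bind Pax5, E2A and CTCF and give rise to lncRNAs in pro-B cells. VDJ-seq counts unique joints, and the deposited value of a VH gene is its percent of all unique VDJH and DJH joints of the library. The sum over all VH genes is thus the percent of joints that are VDJH joints, and a second scale used here is the share of a gene in this sum.

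RAG cuts at the recombination signal sequence that follows each VH gene, which consists of a heptamer of 7 bases, a spacer of 23 bases and a nonamer of 9 bases. The signals are shown for genes at both edges of the deletion, because the joint counts reported here are products of these sites and because VH genes with the same signal were found on opposite sides of the inserted PAIR4. The heptamer and the nonamer are in capitals, the strand is the minus strand of chromosome 12, and positions are in mm9. The signal of VH1-85 lies at chr12:117238200-117238238, that of VH1-81 at chr12:117158451-117158489, that of VH1-80 at chr12:117150516-117150554, that of VH1-47 at chr12:116229280-116229318 and that of VH1-39 at chr12:116152771-116152809.
VH1-85: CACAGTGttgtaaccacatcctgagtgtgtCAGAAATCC
VH1-81: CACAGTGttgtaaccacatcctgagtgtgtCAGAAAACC
VH1-80: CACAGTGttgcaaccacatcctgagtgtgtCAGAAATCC
VH1-47: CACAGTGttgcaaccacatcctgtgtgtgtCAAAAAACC
VH1-39: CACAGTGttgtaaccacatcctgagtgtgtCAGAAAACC
VH1-43: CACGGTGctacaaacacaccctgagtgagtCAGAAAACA
VH10-1: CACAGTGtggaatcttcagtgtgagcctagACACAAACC
All genes of this list other than VH1-43 carry the consensus heptamer CACAGTG. VH1-39, downstream of the deletion, and VH1-81, upstream of it, have the same 39 bases, and so do VH1-83 and VH1-85 (both upstream) and VH10-1 and VH10-3 (both far downstream).

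The inserted PAIR4 carries a Pax5-binding site, which is shown as the part of the insert whose sequence the study itself mutated in other alleles. The capitals mark the 9 bases that are replaced in the mutant oligonucleotide of the study.
Pax5 site of PAIR4: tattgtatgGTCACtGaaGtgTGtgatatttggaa
In the mm9 genome these 35 bases lie on the plus strand at chr12:116500696-116500730, near the match of a PAIR4 primer of the study. The other primer of the pair was not placed. Exact copies of these bases were found at 4 places on chromosome 12, all between VH1-47 and VH1-80.

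In the 6 libraries 239 VH gene names were listed, of which 54 stood at 0 throughout. A position was known for 183 names, with 49 in the deleted region and 134 outside it, and the 56 names without a position held 3.42 to 3.86% of the VH usage. The files hold no numbers of joints. Depth is therefore unknown, and all errors are spreads between libraries. The genotype was checked by the deleted genes. They made up 8.75, 7.92 and 12.0% of the joints in the 3 Igh +/+ libraries and 0.182, 0.158 and 0.166% in the 3 Igh P4/P4 libraries, where 15 of the names were still above 0 and none exceeded a mean of 0.0576%. VH8-7, which is missing from the insert, had 0.244, 0.207 and 0.378% of the joints in Igh +/+ and was listed at 0 in all Igh P4/P4 libraries.

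VDJH joints made up 40.6, 37.5 and 52.8% of all joints in Igh +/+ pro-B cells and 33.7, 34.8 and 32.2% in Igh P4/P4 pro-B cells. The groups did not overlap, and the mean of 33.6% ± 1.34 (SD, n = 3) in the mutant was 0.770 times that of 43.6% ± 8.06 (SD, n = 3) in the wild type (exact permutation test, two-sided, p = 0.1, which is the smallest p that 3 against 3 libraries can give). The wild-type spread came largely from replicate 3 with its 52.8%. The percent was 33.8 to 36.6% in Igh P4V/P4V, 27.4 to 31.6% in Igh Δ890/Δ890 and 43.3 to 45.5% in the Igh +/+ libraries in the control set of the latter. The difference between the means was −10.1 points, and the deleted genes alone differed by −9.40 points. Leaving out single libraries gave differences from −13.1 to −5.49 points, the latter without the third Igh +/+ library.

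Along the locus the difference between the genotypes was not uniform. The genes that flank the deletion on its downstream side had lower summed usage in Igh P4/P4 pro-B cells on both scales. Those on its upstream side overlapped with the wild type as percent of joints. On that scale 11 genes further downstream, most of them of small families, were higher. Among the 20 names from VH1-28 to VH1-47, directly downstream, the summed usage was 1.37, 1.16 and 1.61% of the joints in Igh +/+ and 0.888, 0.767 and 0.755% in Igh P4/P4, a ratio of means of 0.582 without overlap. The 7 names from VH1-80 to VH1-86 upstream of the deletion had 1.29, 1.20 and 1.69% in Igh +/+ and 1.45, 1.40 and 1.35% in Igh P4/P4, with overlapping groups and a ratio of 1.00. This difference of 0.00684 points turned to −0.314 points against the wild-type libraries of all control sets and ranged from −0.0886 to 0.156 points when single libraries were left out.

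The remaining regions lie further downstream. The stretch from VH1-1 to VH1-27, which includes the interspersed small families, had 9.93, 9.48 and 13.4% in the wild type and 12.1, 12.9 and 11.4% in the mutant (ratio 1.11). In the middle region the values were 7.11, 6.45 and 9.74% against 8.07, 8.46 and 7.91% (ratio 1.05). The proximal region, which starts at VH5-1, gave 10.6, 9.91 and 12.4% against 9.87, 9.91 and 9.37% (ratio 0.887). In these 3 regions the percentages of the groups overlapped, and over the 6 regions no exact permutation test can go below 0.1 with 3 against 3 libraries.

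As share of the VH usage the picture shifted, because the 21.8% ± 0.884 (SD, n = 3) of the wild-type VH usage that fell on deleted genes was lost from the sum. The share was then 1.44 times the wild-type value for VH1-1 to VH1-27, 1.37 times for the middle, 1.31 times for the upstream and 1.14 times for the proximal region, and still 0.755 times for VH1-28 to VH1-47, with no overlap between the groups in any of these 5. When only the VH genes outside the deletion formed the sum, the ratios became 1.13, 1.08, 1.03, 0.899 and 0.593 in the same order, so that the proximal region changed its direction with the denominator. Names without a position were kept in this sum, here and below, and in the family sums outside the deletion.

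**Figure D1:**
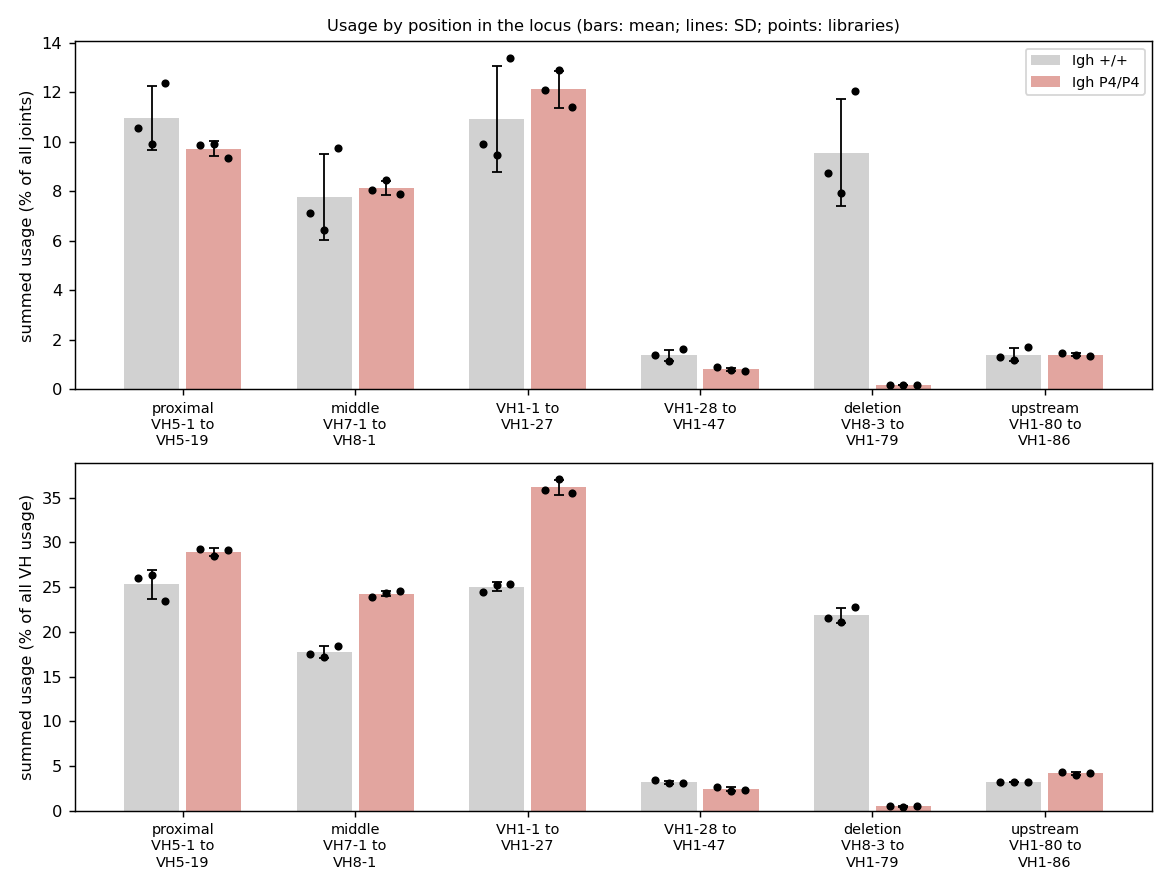
Summed VH gene usage in 6 regions, ordered from the DH-proximal end to the distal end, as percent of all joints (top) and as percent of all VH usage (bottom). Bars show means, lines SD and points the 3 libraries of Igh +/+ (grey) and Igh P4/P4 (red). The deleted region falls from 21.8% to 0.503% of VH usage, VH1-28 to VH1-47 lies lower in the mutant in both panels, and the upstream region overlaps as percent of joints (ratio 1.00).

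Single genes were then tested with limma over the 87 VH genes outside the deletion that had a mean usage of at least 0.01% of the joints. The limma p-values treat genes as independent, although all genes share the 6 libraries. As percent of all joints, 11 genes (12.6%) were higher and 9 genes (10.3%) lower in Igh P4/P4 at an adjusted p under 0.05, with a median log2 change of −0.10 over all genes tested. As share of VH usage, 42 genes (48.3%) were higher and 6 (6.9%) lower with a median log2 change of 0.26, and with the genes outside the deletion as the sum the split became 18 higher and 19 lower around a median of −0.09. Of the 20 genes past the threshold as percent, 7 kept their call whichever of the 6 libraries was left out, namely VH6-3, VH6-4 and VH1-12 among the higher and VH1-27, VH1-39, VH1-47 and VH15-2 among the lower genes. Without Igh +/+ replicate 3, 25 genes were higher and 10 lower, and the total was 8 instead of 20 without Igh +/+ replicate 1 or Igh P4/P4 replicate 2, to 13 without Igh P4/P4 replicate 1 and to 10 without Igh P4/P4 replicate 3.

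**Figure D2:**
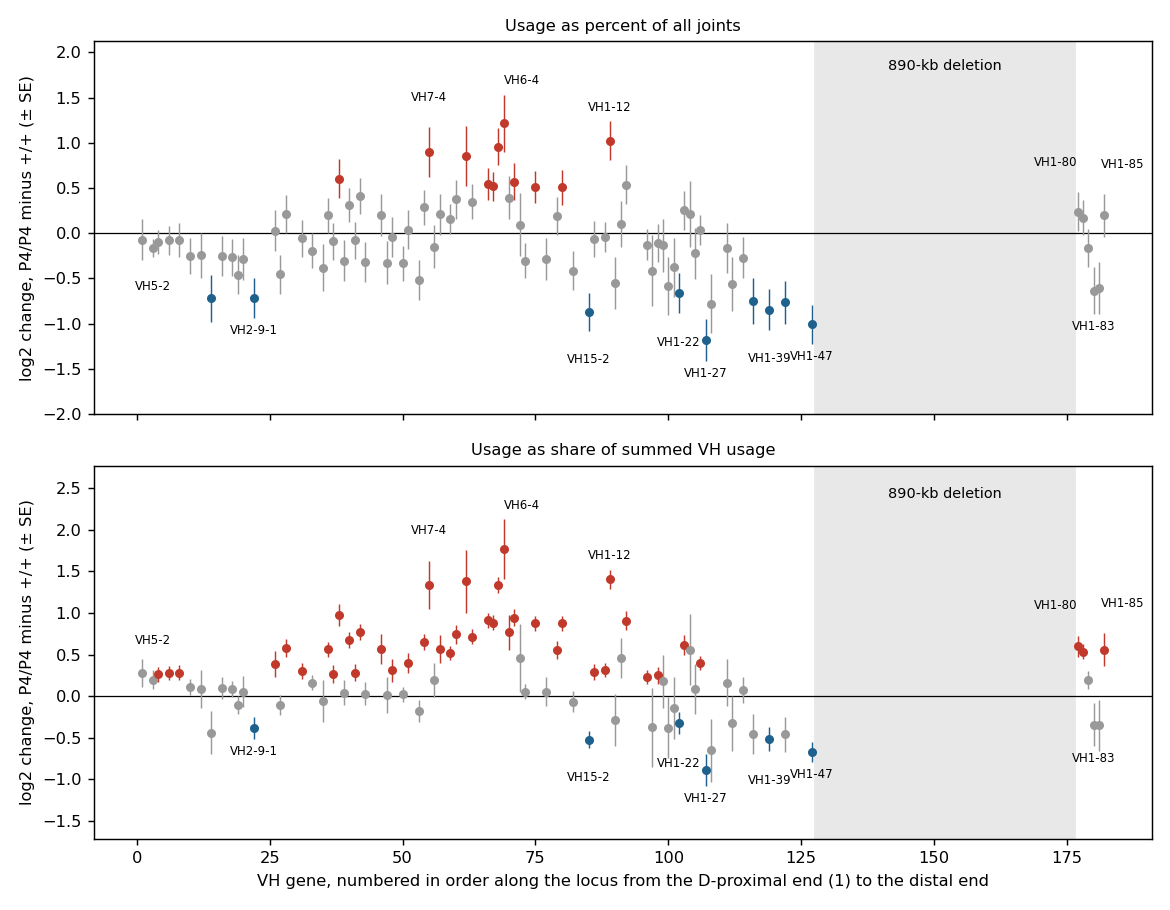
Log2 change in usage, Igh P4/P4 minus Igh +/+, of each VH gene tested, with its SE from limma, in the order of the genes along the locus, as percent of all joints (top) and as share of VH usage (bottom). Red and blue mark genes higher or lower at an adjusted p under 0.05, grey marks all others and the grey band is the deletion. The 8 genes directly left of the band lie below 0 in the top panel, and the 6 genes right of it lie between −0.64 and 0.24.

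Upstream of the deletion, VH1-80 to VH1-85 are the 6 distal VH genes closest to the inserted PAIR4. None of the 6 passed the threshold as percent of joints (limma, 2 at an unadjusted p under 0.05), and 3 of them were higher as share of VH usage, where 48.3% of all genes tested were higher. VH1-81, the most used of the 6 (chromosome 12, 115920279 to 115920572, mm10), had 0.417, 0.422 and 0.592% of the joints in Igh +/+ and 0.517, 0.541 and 0.538% in Igh P4/P4. The mutant libraries lay within the wild-type range, and the log2 change was 0.17 (SE 0.20, 95% interval −0.22 to 0.56, adjusted p = 0.535, limma).

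VH1-80, next to the insert at 115912344 to 115912637, had 0.213, 0.199 and 0.333% in Igh +/+ and 0.322, 0.291 and 0.252% in Igh P4/P4. The groups overlapped and the log2 change was 0.24 (SE 0.22, adjusted p = 0.455, limma). VH1-85, at 116000028 to 116000321 the farthest of the 6, had 0.102, 0.131 and 0.130% in Igh +/+ and 0.149, 0.120 and 0.151% in Igh P4/P4, and its change was 0.20 (log2, SE 0.24, adjusted p = 0.547, limma).

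As share of VH usage these 3 genes were higher in the mutant, by log2 changes of 0.54 for VH1-81 (adjusted p = 1.07e-07), 0.60 for VH1-80 (adjusted p = 9.09e-06) and 0.56 for VH1-85 (adjusted p = 0.00949, limma). With only the genes outside the deletion in the sum, their changes were 0.19, 0.26 and 0.22, and none of the 3 passed the threshold. The call of VH1-85 as share was lost in 3 of the 6 fits that left out a library.

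The other 3 upstream genes had lower mean values as percent of joints, and as share VH1-82 differed in the opposite direction. VH1-83 had 0.105, 0.0755 and 0.118% of the joints in Igh +/+ and 0.0624, 0.0488 and 0.0688% in Igh P4/P4. Every mutant library lay below every wild-type library, but the log2 change of −0.64 did not pass the threshold (SE 0.26, adjusted p = 0.0565, limma). With only the genes outside the deletion in the sum it was −0.67 and passed as lower (adjusted p = 0.0219, limma), as the only one of the 6 upstream genes. VH1-84 had 0.0521, 0.0606 and 0.0702% against 0.0233, 0.0435 and 0.0462%, again without overlap (log2 change −0.60, SE 0.29, adjusted p = 0.119, limma). As share the changes of VH1-83 and VH1-84 were −0.34 (adjusted p = 0.274) and −0.35 (adjusted p = 0.356, limma), and on that scale the groups of both genes overlapped.

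VH1-82 was much more used, with 0.399, 0.316 and 0.451% against 0.379, 0.357 and 0.297%. Its groups overlapped (log2 change −0.16, SE 0.21, adjusted p = 0.575, limma), and as share the change was 0.19 (SE 0.11, adjusted p = 0.113, limma). VH1-83 and VH1-85, which share the same recombination signal, had values of −0.64 and 0.20 for the change, neither past the threshold, and the difference between them was not tested.

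Downstream of the deletion, the 6 VH1 genes from VH1-36 to VH1-47 had a summed usage of 1.06, 0.828 and 1.16% of the joints in Igh +/+ and of 0.578, 0.498 and 0.493% in Igh P4/P4. The groups did not overlap and the mean was 0.516 times the wild-type value (exact permutation test, p = 0.1, the smallest possible). Of these 6 genes 4 were used enough to be tested, and all 4 were lower as percent of joints, beside a background of 10.3% of genes lower.

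VH1-47, the first gene beyond the insert at 114991108 to 114991401 (mm10), had 0.424, 0.389 and 0.519% in Igh +/+ and 0.247, 0.189 and 0.209% in Igh P4/P4. All mutant libraries lay below all wild-type libraries, with a log2 change of −1.01 (SE 0.21, adjusted p = 8.03e-05) as percent and of −0.67 (adjusted p = 6.48e-08, limma) as share. VH1-39 had 0.292, 0.236 and 0.315% against 0.181, 0.140 and 0.135%, also without overlap, with log2 changes of −0.84 (SE 0.22, adjusted p = 0.00229) and −0.51 (adjusted p = 0.00149, limma).

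VH1-42 had 0.169, 0.120 and 0.150% against 0.0857, 0.0693 and 0.0902%, and VH1-36 had 0.152, 0.0718 and 0.145% against 0.0571, 0.0941 and 0.0516%. Only VH1-36 had overlapping groups. Their log2 changes as percent were −0.77 (adjusted p = 0.0135) and −0.75 (adjusted p = 0.0191, limma), and as share they were −0.46 and −0.45 without passing the threshold. The calls of both were lost when single libraries were left out, in 2 of 6 fits for VH1-42 and in 3 of 6 for VH1-36.

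VH1-37 and VH1-43 were hardly used. VH1-37 reached at most 0.0231% in Igh +/+ and 0.00645% in Igh P4/P4. VH1-43 had 0.0118, 0.00280 and 0.00289% in Igh +/+ and was listed at 0 in the Igh P4/P4 libraries. Its heptamer is CACGGTG and that of VH1-37 is CACTGTA, and both differ from the consensus. The heptamer of VH5-4 also differs from it, and VH5-4 had a wild-type mean of 1.07% of the joints. A link between heptamer and usage was not tested.

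The ratio of the 6 upstream to the 6 downstream genes needs no common denominator, since it is taken within each library. It was 1.22, 1.46 and 1.47 in Igh +/+ and 2.51, 2.81 and 2.75 in Igh P4/P4, hence 1.38 ± 0.141 against 2.69 ± 0.158 (SD, n = 3) or 1.95 times as large in the mutant (exact permutation test, p = 0.1, the smallest possible). The ratio was 1.33 to 1.40 for the Igh Δ890/Δ890 libraries, which lay above the 0.979 to 1.26 of their own wild-type libraries, and 3.42 to 3.77 for Igh P4V/P4V. VH1-81 and VH1-39, one on each side and with the same recombination signal, had values of 0.17 and −0.84 for the change as percent of joints.

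**Figure D3:**
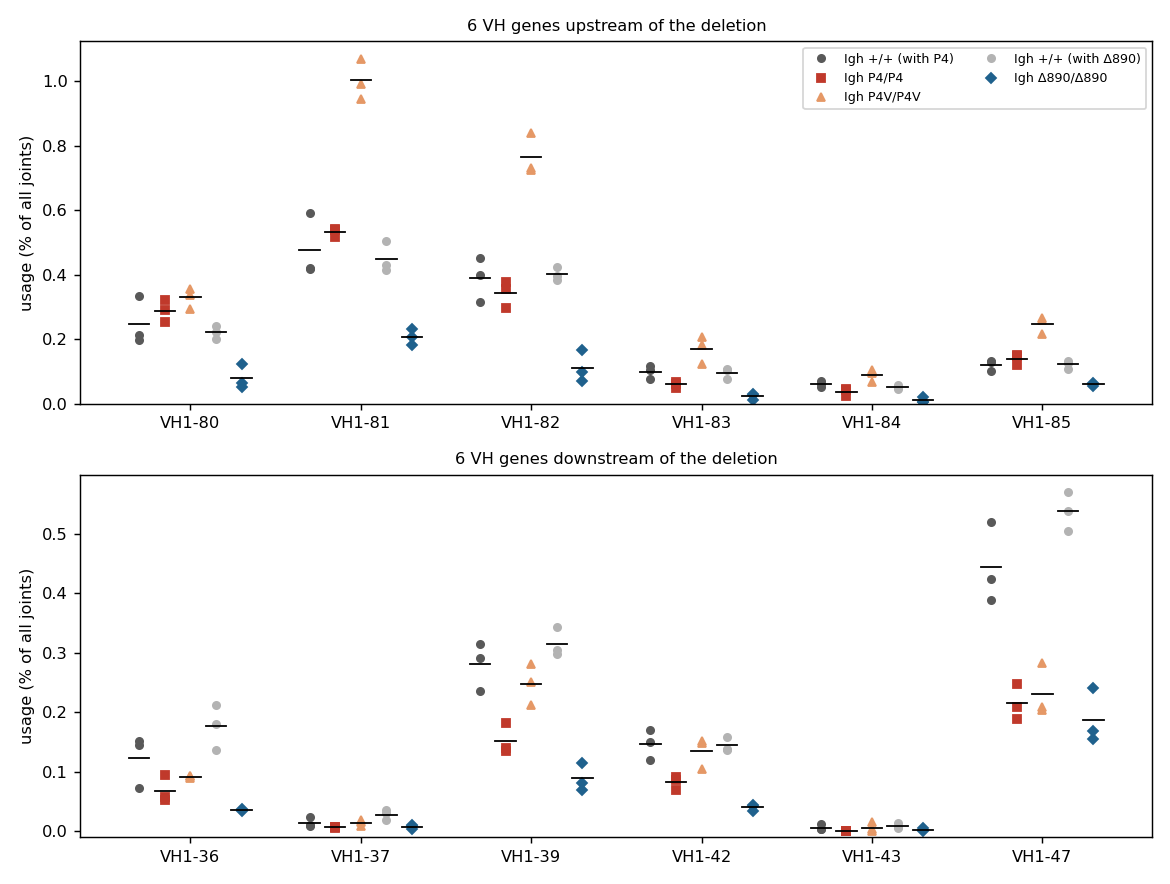
Usage as percent of all joints of the 6 VH genes upstream (top) and the 6 downstream (bottom) of the deletion in every library of Igh +/+ (control set of P4), Igh P4/P4, Igh P4V/P4V, Igh +/+ (control set of Δ890) and Igh Δ890/Δ890, with the mean of 3 libraries as a line. For VH1-81 the Igh P4/P4 libraries lie at 0.517 to 0.541%, between the Igh Δ890/Δ890 and the Igh P4V/P4V libraries and within the wild-type range, whereas for VH1-47 they lie at 0.189 to 0.247%, below both wild-type groups.

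Between VH1-1 and VH1-47, genes closer to the deletion tended to have lower changes. Over the 40 genes tested in this stretch, Spearman's rho between the distance from VH1-80 and the log2 change was 0.67 as percent and 0.68 as share. Over all 81 genes tested downstream of the deletion it was 0.15 and 0.17. The genes share the 6 libraries, and the values are given as a description. In the 8 genes tested from VH1-28 to VH1-47, 4 were lower and none was higher as percent (5 at an unadjusted p under 0.05, limma), with log2 changes from −1.01 to −0.16.

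Of the 32 genes tested from VH1-1 to VH1-27, 8 were higher and 3 lower as percent of joints, and 17 were higher and 3 lower as share. With the genes outside the deletion as the sum, 9 were higher and 5 lower, beside 18 and 19 of all 87 genes. Of all genes tested, 12.6% were higher and 10.3% lower as percent, and 48.3% higher and 6.9% lower as share. The 3 genes that were lower as percent and the 3 that were lower as share were the same. VH1-27, a pseudogene at 114804616 to 114804909 (mm10) that is still joined, had 0.195, 0.191 and 0.249% in Igh +/+ and 0.0804, 0.0781 and 0.105% in Igh P4/P4. It had the lowest change of all genes tested, with −1.18 (SE 0.23, adjusted p = 6.51e-05) as percent and −0.88 (adjusted p = 1.69e-05, limma) as share.

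VH15-2, the only gene of its family, had 0.497, 0.425 and 0.655% in Igh +/+ and 0.330, 0.245 and 0.268% in Igh P4/P4, with all mutant libraries lower. Its log2 changes were −0.87 (SE 0.21, adjusted p = 0.000656) as percent and −0.52 (adjusted p = 2.55e-06, limma) as share. VH1-22 had 0.282, 0.296 and 0.375% against 0.200, 0.189 and 0.197%, with log2 changes of −0.67 (adjusted p = 0.0175) and −0.32 (adjusted p = 0.0249, limma). VH1-22 kept its call in 2 of 6 fits as percent and in 3 of 6 as share when a library was left out.

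The higher genes of this stretch were mostly members of small families that lie among the VH1 genes. VH6-3 had 0.301, 0.246 and 0.410% of the joints in Igh +/+ and 0.616, 0.666 and 0.570% in Igh P4/P4. The groups were well apart and the log2 change was 0.96 as percent (SE 0.20, adjusted p = 8.03e-05) and 1.33 as share (adjusted p = 2.28e-32, limma). VH6-4 was little used, with 0.0166, 0.0140 and 0.0173% against 0.0476, 0.0586 and 0.0451%. Its change was the highest of all genes tested, with 1.22 as percent (SE 0.32, adjusted p = 0.00229) and 1.77 as share (adjusted p = 5.97e-06, limma).

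The remaining VH6 gene past the threshold as percent, VH6-6, had 0.312, 0.249 and 0.476% against 0.511, 0.519 and 0.474% (log2 change 0.57, adjusted p = 0.0298, limma) and was named after its values were seen. Its groups overlapped, and it kept this call in 1 of 6 fits that left out a library. As share it was higher by 0.94 without overlap (adjusted p = 9.69e-18, limma) and kept that call in 6 of 6 fits.

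VH1-12 was the VH1 gene with the highest change. It had 0.188, 0.186 and 0.241% in Igh +/+ and 0.465, 0.437 and 0.377% in Igh P4/P4, so that it was used 2.08 times as often in the mutant, with log2 changes of 1.02 as percent (SE 0.22, adjusted p = 8.03e-05) and 1.40 as share (adjusted p = 4.32e-26, limma). Its neighbour VH1-11, one of the 5 most used genes of the wild type, had 0.928, 0.822 and 1.21% against 0.965, 1.05 and 0.832%. The groups of VH1-11 overlapped, its change as percent was −0.04, and as share it was 0.32 (adjusted p = 0.000891, limma) but −0.03 with the genes outside the deletion as the sum. The VH1 genes resemble each other, and the effect of dividing reads between similar genes was not tested.

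VH13-2 and VH12-3, the only tested gene and one of 2 tested genes of their families, were highly used and higher in the mutant. VH13-2 had 0.568, 0.638 and 0.877% against 0.971, 1.09 and 0.948%, with log2 changes of 0.54 (adjusted p = 0.0135) and 0.91 (adjusted p = 5.14e-21, limma). VH12-3 had 0.919, 0.797 and 1.05% against 1.18, 1.62 and 1.19%, with changes of 0.52 (adjusted p = 0.0115) and 0.88 (adjusted p = 8.12e-20, limma). In both genes all mutant libraries lay above all wild-type libraries.

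VH10-1 and VH10-3, which have the same recombination signal, were both higher, and the difference between them was not tested. VH10-1 had 0.635, 0.613 and 0.820% against 0.970, 1.05 and 0.917%, and VH10-3 had 0.402, 0.394 and 0.589% against 0.758, 0.613 and 0.590%. The log2 change was 0.51 for both genes as percent (adjusted p = 0.0214 and 0.0429) and 0.87 for both as share (adjusted p = 8.12e-20 and 3.96e-18, limma). As percent each kept its call in 1 of 6 fits that left out a library, VH13-2 in 2 and VH12-3 in 3.

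In the middle region 3 of 24 genes were higher and none was lower as percent of joints, whereas 16 were higher and none was lower as share (limma, 5 and 16 at an unadjusted p under 0.05). Over all genes, 12.6% and 48.3% were higher on these scales. With the genes outside the deletion as the sum, 9 were higher and 2 lower. VH7-4 had 0.0260, 0.0392 and 0.0519% in Igh +/+ and 0.0793, 0.0879 and 0.0709% in Igh P4/P4, without overlap, and changed by 0.90 as percent (SE 0.28, adjusted p = 0.0115) and 1.34 as share (adjusted p = 2.01e-05, limma). VH11-1 had 0.196, 0.159 and 0.264% against 0.298, 0.356 and 0.288%, with changes of 0.60 (adjusted p = 0.0298) and 0.98 (adjusted p = 2.85e-12, limma).

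The third higher gene of the middle, the pseudogene VH5-21, had 0.0189, 0.00839 and 0.0202% against 0.0286, 0.0373 and 0.0419%, with changes of 0.85 (adjusted p = 0.0471) and 1.38 (adjusted p = 0.0011, limma). VH14-4 stood lowest in this region, with 0.258, 0.232 and 0.356% against 0.197, 0.174 and 0.201% and a change of −0.52 as percent that did not pass the threshold (adjusted p = 0.0685, limma). As share its change was −0.18 (adjusted p = 0.283, limma), whereas with the genes outside the deletion as the sum it was −0.52 and passed (adjusted p = 0.000846, limma). By annotation, 10 of 73 V segments not marked as pseudogenes and 1 of 14 pseudogenes were higher as percent. Lower were 8 and 1, beside 12.6% higher and 10.3% lower of all genes tested.

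In the proximal region none of the 17 genes tested was higher and 2 were lower as percent of joints (4 at an unadjusted p under 0.05, limma). Over all genes, 10.3% were lower as percent. As share, 6 were higher and 1 was lower, beside 48.3% and 6.9% of all genes, and with the genes outside the deletion as the sum none was higher and 6 were lower. The direction of the proximal genes as a group thus depended on the denominator. VH5-2, the most used VH gene of the locus (113578504 to 113578990, mm10), had 3.46, 3.33 and 3.89% in Igh +/+ and 3.16, 3.37 and 2.99% in Igh P4/P4. Its groups overlapped and its log2 change was −0.16 as percent (SE 0.10, adjusted p = 0.257, limma) and 0.20 as share (adjusted p = 0.113, limma).

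VH5-4 and VH1-26, likewise among the 5 most used genes, also had higher changes as share than as percent. VH5-4 had 1.08, 0.973 and 1.14% against 0.954, 1.03 and 1.03%, a change of −0.08 as percent and of 0.28 as share (adjusted p = 0.00345, limma). VH1-26 had 0.905, 0.856 and 1.17% against 0.922, 1.03 and 1.04%, a change of 0.04 as percent and of 0.40 as share (adjusted p = 2.01e-05, limma). VH2-2, the second most used gene, changed by −0.10 as percent and 0.26 as share (adjusted p = 0.0106, limma).

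The proximal gene that was lower on both scales was VH2-9-1. It had 0.289, 0.316 and 0.348% against 0.189, 0.198 and 0.179%, without overlap, and changes of −0.72 as percent (SE 0.22, adjusted p = 0.0115) and −0.38 as share (adjusted p = 0.00941, limma). VH5-9 changed by −0.72 as percent (adjusted p = 0.0298) and by −0.44 as share without passing the threshold (adjusted p = 0.142, limma). VH5-17 stood highest among the proximal genes, with 0.364, 0.264 and 0.387% against 0.416, 0.408 and 0.349% and a change of 0.22 as percent (adjusted p = 0.48, limma). As share it was higher by 0.58 (SE 0.11, adjusted p = 3.82e-07, limma), without overlap, whereas with the genes outside the deletion as the sum the change of 0.24 did not pass the threshold (adjusted p = 0.0621, limma).

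By VH family, VH1, many of whose members were deleted, made up 39.7, 39.7 and 41.1% of the VH usage in Igh +/+ and 26.9, 26.4 and 26.4% in Igh P4/P4, 0.661 times the wild-type share. Its members outside the deletion held 22.0, 22.5 and 22.4% against 26.4, 25.9 and 25.9%, which is 1.17 times the wild-type share but 0.900 times the wild-type percent of joints, the latter with overlap. The VH8 family, whose members accompany the PAIR elements, held 5.31, 5.32 and 5.55% against 1.48, 1.54 and 1.47% of VH usage, 0.277 times the wild-type share. The VH8 members outside the deletion held 1.47, 1.42 and 1.43% against 1.48, 1.52 and 1.46%, with overlap.

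The families VH6, VH13, VH10 and VH11 had the largest ratios. VH6 held 1.81, 1.63 and 2.01% of VH usage in Igh +/+ and 3.90, 4.07 and 3.87% in Igh P4/P4, 2.17 times the wild-type share and 1.65 times the wild-type percent of joints. The ratios of shares were 1.88 for VH13, 1.85 for VH10 and 1.81 for VH11, and those of percentages were 1.44, 1.42 and 1.40. In all 4 families the groups were apart on both scales. VH12 had a ratio of shares of 1.74 without overlap, and its percentages (ratio 1.34) overlapped.

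VH15 was the only family without deleted members whose share stood apart below the wild type, with 1.23, 1.13 and 1.24% against 0.979, 0.704 and 0.832%. VH14 overlapped as share (ratio 0.973). The families VH4, VH3, VH7, VH9, VH5 and VH2 had ratios of shares of 1.54, 1.42, 1.25, 1.25, 1.15 and 1.12 without overlap. As percent of joints the ratios of VH2 and VH5 were 0.863 and 0.896, so that these large proximal families differ in direction between the scales. With 3 against 3 libraries the smallest adjusted p over the families was 0.114 as share and 0.178 as percent, and none can pass the threshold.

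**Figure D4:**
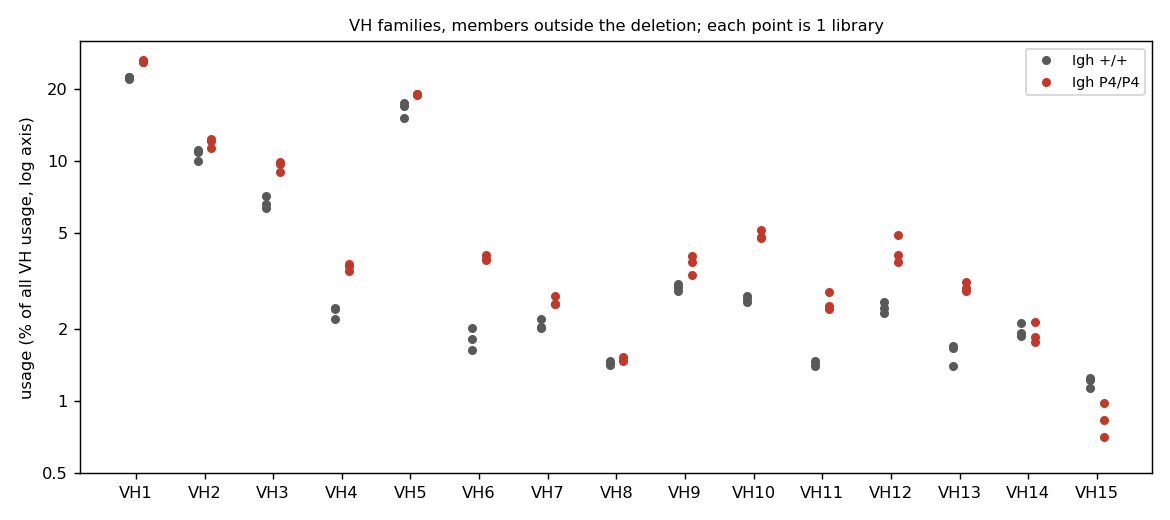
Share of VH usage (log axis) of 15 VH families, counting only members outside the deletion, with 1 point per library of Igh +/+ (dark grey) and Igh P4/P4 (red). VH6, VH10, VH11, VH12 and VH13 lie clearly higher in the mutant with ratios of 1.74 to 2.17, VH15 lies lower, and VH8 and VH14 overlap.

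The spread of usage over genes was summarised by the effective number of VH genes, the exponential of the Shannon entropy of the shares. It was 87.2, 86.5 and 91.2 genes in Igh +/+ and 60.8, 59.4 and 61.1 in Igh P4/P4. Among the genes outside the deletion, with the names without a position kept, it was 61.6, 60.9 and 64.5 against 59.5, 58.2 and 59.8. The groups did not overlap, and the mean was 0.950 times the wild-type value (exact permutation test, p = 0.1, the smallest possible). This difference of −3.13 genes became −6.75 against the wild-type libraries of all control sets. With the inverse Simpson index, which weights the most used genes more, the numbers outside the deletion overlapped at 36.9, 35.8 and 41.5 against 39.1, 37.7 and 38.9.

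The Igh P4 allele was made from the Igh Δ890 allele by the insertion at its deletion point, and the alleles also differ in the selection sequences left there, which cannot be told apart from the insert. The change of Igh P4/P4 against its Igh +/+ libraries was therefore set against the change of Igh Δ890/Δ890 against its own. Among 89 genes tested with limma, 7 (7.87%) had a higher change with the insert as percent of joints and 6 (6.74%) as share. None was lower on either scale (0 at an unadjusted p under 0.05 as percent and 5 as share). The median difference was 0.29 as percent and 0.07 as share. With all libraries, the genes past the threshold lay within the 6 genes upstream of the deletion and VH1-36 and VH1-39 downstream of it, and none of the genes tested in the proximal region, in the middle or from VH1-1 to VH1-27 passed. This did not hold in every fit that left out a library. Without Igh +/+ replicate 3 of the P4 set, 6 genes from VH1-1 to VH1-27, 7 in the middle and 3 in the proximal region were higher as percent. As share, 1 to 3 genes of these regions passed without any one of the Igh Δ890/Δ890 libraries or without replicate 1 of either Igh +/+ set.

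VH1-80 had the largest difference among the genes past the threshold on both scales. Its usage was 0.0632, 0.124 and 0.0506% in Igh Δ890/Δ890, against 0.222, 0.241 and 0.201% in its Igh +/+ libraries and 0.322, 0.291 and 0.252% in Igh P4/P4. The difference of changes was 1.69 as percent (SE 0.29, adjusted p = 5.12e-07) and 1.55 as share (adjusted p = 1.1e-06, limma). VH1-82, with 0.0991, 0.165 and 0.0711% in Igh Δ890/Δ890, differed by 1.66 as percent (SE 0.28, adjusted p = 2.31e-07) and 1.49 as share (adjusted p = 1.31e-07, limma).

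VH1-81 had 0.181, 0.233 and 0.207% in Igh Δ890/Δ890, less than any Igh P4/P4 or Igh +/+ library. Its difference was 1.26 as percent (SE 0.26, adjusted p = 4.01e-05) and 1.05 as share (adjusted p = 6.89e-07, limma). VH1-80, VH1-81 and VH1-82 kept their calls on both scales in each of the 12 fits that left out a library. VH1-85 differed by 1.13 (adjusted p = 0.00851) and 0.98 (adjusted p = 0.0202, limma) and kept these calls in 11 and 7 of the 12 fits. VH1-83, which kept its call as percent in 5 of these 12 fits, differed by 1.08 on both scales (adjusted p = 0.0366 as percent and 0.0858 as share), and VH1-84 by 1.04 and 1.26 (adjusted p = 0.0997 and 0.146, limma).

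Of the downstream genes, VH1-36 had 0.0366, 0.0350 and 0.0337% in Igh Δ890/Δ890 and 0.137, 0.212 and 0.179% in the wild type of its control set. Its difference was 1.27 as percent (SE 0.34, adjusted p = 0.0038) and 1.16 as share (adjusted p = 0.0202, limma). VH1-39 had 0.0812, 0.115 and 0.0695% in Igh Δ890/Δ890 and differed by 0.90 (adjusted p = 0.0327) and 0.71 (adjusted p = 0.0364, limma). VH1-39 kept its call in 4 of 12 fits as percent and in 6 of 12 as share, and VH1-36 in 10 and 8. VH1-47, the gene nearest to the insert on this side, differed by 0.49 (SE 0.27, 95% interval −0.04 to 1.02, adjusted p = 0.298, limma) and VH1-42 by 0.87 (adjusted p = 0.0997, limma).

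The number of genes past the threshold was 27 as percent without Igh +/+ replicate 3 of the P4 set and 4 without replicate 1 or 2, and as share it was 3 without replicate 2 of the Igh +/+ libraries of the Igh Δ890/Δ890 set and 10, with 7 higher and 3 lower, without Igh Δ890/Δ890 replicate 2. With all libraries no gene was lower. None of the 11 genes that were higher in Igh P4/P4 than in Igh +/+ as percent passed in this contrast. VH6-3 had 0.450, 0.503 and 0.480% and VH1-12 had 0.276, 0.427 and 0.352% of the joints in Igh Δ890/Δ890. Their differences were 0.61 (95% interval 0.12 to 1.11, adjusted p = 0.128) and 0.06 (95% interval −0.48 to 0.60, adjusted p = 0.89, limma) as percent. For VH1-27 and VH15-2, which were lower in Igh P4/P4, the differences were 0.28 (adjusted p = 0.647) and 0.32 (adjusted p = 0.516, limma).

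**Figure D5:**
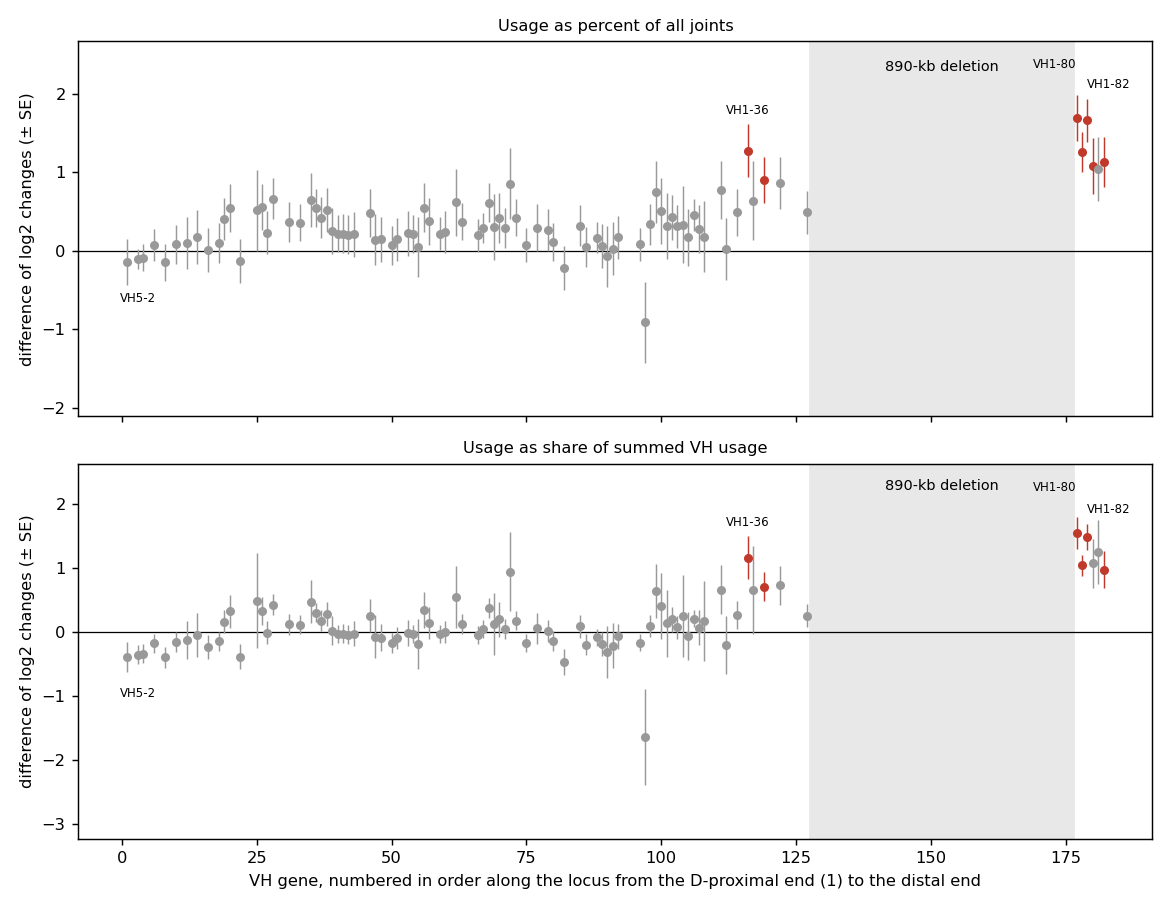
Difference between the log2 change of Igh P4/P4 and that of Igh Δ890/Δ890, each against the Igh +/+ libraries of its set, for every VH gene tested, with its SE from limma, as percent of all joints (top) and as share of VH usage (bottom). Red marks an adjusted p under 0.05, grey marks all other genes and the grey band is the deletion. The red points are VH1-36 and VH1-39 to the left of the band and 5 (top) or 4 (bottom) of the 6 genes to its right.

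Igh P4V/P4V pro-B cells, with VH8-7 and V8.7E next to PAIR4, were compared directly with Igh P4/P4 pro-B cells of the same set. Among 87 genes 1 (1.15%) was higher and 6 (6.9%) were lower in Igh P4/P4 as percent of joints, and 3 (3.45%) were higher and 6 (6.9%) lower as share. The lower genes on both scales were VH1-81 to VH1-85 and VH1-39. VH1-82 had 0.724, 0.730 and 0.839% in Igh P4V/P4V, against 0.379, 0.357 and 0.297% in Igh P4/P4, a log2 difference of −1.13 (SE 0.12, adjusted p = 2.39e-10, limma).

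VH1-81 had 0.993, 0.946 and 1.07% in Igh P4V/P4V, above every wild-type library, and differed by −0.90 (adjusted p = 4.03e-09, limma). VH1-83 differed by −1.34 (adjusted p = 1.5e-05), VH1-84 by −1.07 (adjusted p = 0.00389) and VH1-85 by −0.78 (adjusted p = 0.00131, limma). VH1-80, the upstream gene next to the insert, had 0.337, 0.294 and 0.357% in Igh P4V/P4V and overlapped with Igh P4/P4 (log2 difference −0.19, 95% interval −0.47 to 0.09, adjusted p = 0.532, limma).

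On the downstream side VH1-39 had 0.281, 0.212 and 0.251% in Igh P4V/P4V and differed by −0.67 (adjusted p = 0.00565, limma), whereas VH1-47 had 0.209, 0.203 and 0.283% and differed by −0.09 (95% interval −0.43 to 0.24, adjusted p = 0.847, limma). VH11-1 of the middle region was higher in Igh P4/P4 by 0.51 as percent (adjusted p = 0.0215) and 0.59 as share (adjusted p = 0.00314, limma), and as share also VH5-4 by 0.30 (adjusted p = 0.027) and VH4-2 by 0.35 (adjusted p = 0.0173, limma). The calls of VH1-81, VH1-82 and VH1-83 held on both scales in all 6 fits that left out a library, and that of VH1-85 held in all 6 as percent and in 5 as share. That of VH1-39 held in 3 of 6 as percent and 2 of 6 as share, that of VH11-1 in 2 and 5, and that of VH1-84 in 5 and 3. As share, VH4-2 kept its call in 4 of 6 fits and VH5-4 in 2.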

How the data were processed

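VDJ-seq libraries were made from sheared DNA of sorted pro-B cells by extension from JH primers after adapters with unique molecular identifiers had been added. The authors deposited, for each library, the percent of all unique VDJH and DJH joints that falls on each VH gene. Depth and counting error are unknown, since the values hold no numbers of joints. How reads were divided between similar VH genes is not given in the sources used here. Bowtie 0.12.5 and the builds mm9 and mm10 are named in the submitters' processing notes without a role. The study names Bowtie 0.12.5 and mm9 for its ChIP-seq reads, and for VDJ-seq it refers to an earlier description of the method.

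From the percentages, the share of each gene in the summed VH percent was computed. Groups were taken from the genotype labels. Single genes were tested with limma 3.58.1 in R 4.3.3 (lmFit, then eBayes with its trend option) on the scale log2(usage + 0.01), which understates changes of little used genes, over genes with a known position outside the deletion and a mean usage of at least 0.01% of joints. Benjamini-Hochberg adjustment ran over all genes of a fit, with a threshold of 0.05. In the comparison with the wild type and, as percent, in the contrast for the insertion, limma pooled the spread fully over genes (348 and 712 degrees of freedom). Very small p-values thus rest on treating genes of like usage as equally variable and genes of the same library as independent. For sums, exact two-sided permutation tests were used (Python 3.11.15, scipy 1.17.1) and adjusted over regions or families. The fit against the wild type as percent was run on simulated data with changes larger than any found on that scale. Noise in that run was independent between genes, so it cannot show how the calls fare when genes of a library move together. Gene positions are from RefSeq (mm10) and recombination signals from the mm9 genome, in which they were found for 65 of the 87 genes tested.

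The genes named were the 6 upstream and 6 downstream VH genes, VH1-27, VH8-7 and VH5-2, the 5 most used genes of the wild type, up to 6 higher and 6 lower genes per test with the smallest adjusted p and no overlap of libraries, and the genes with the highest and the lowest change of each region against the wild type. The libraries compared, the gene lists and the regions were chosen with earlier results of these data known. Alternatives were other pseudocounts and filters, other limma settings, another denominator, more wild-type libraries as controls, and leaving out each library in turn. For the controls, 18 wild-type libraries from all control sets were used, and the remaining wild-type libraries of the study were left out.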

Additional observations from a re-analysis of the deposited data

Results flagged for a closer look

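A tested difference between the change of Igh P4/P4 and that of Igh Δ890/Δ890, each against the Igh +/+ libraries of its control set, singled out the following genes (limma). As percent of joints the log2 differences were 1.69 for VH1-80, 1.66 for VH1-82, 1.27 for VH1-36, 1.26 for VH1-81, 1.13 for VH1-85, 1.08 for VH1-83 and 0.90 for VH1-39. As share of VH usage they were 1.55 for VH1-80, 1.49 for VH1-82, 1.16 for VH1-36, 1.05 for VH1-81, 0.98 for VH1-85 and 0.71 for VH1-39. The Igh Δ890/Δ890 libraries and their Igh +/+ libraries are another control set, and a difference between the sets that acts on the mutant libraries alone cannot be told apart from the insert.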

How the results depend on the processing

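No paired analysis was possible because the labels give no replicate numbers that link wild-type and mutant libraries. With the wild-type libraries of all control sets and the set as a term in the fit, 13 genes (7 higher, 6 lower) passed as percent of joints instead of 20. With 18 wild-type libraries, 2 regions as percent, 5 regions as share, 6 families as percent and 14 families as share passed in exact permutation tests. With 3 against 3 libraries none could. These tests changed both the number and the values of the controls and did not keep the control sets apart. The same control changed the upstream sum to −0.314 points (reversed, likewise as a region), the downstream sum to −0.698 as percent and −1.04 as share, the ratio of upstream to downstream genes to a difference of 1.32, the effective number of all genes to −31.5 and of genes outside the deletion to −6.75, the middle region to −0.431 and VH3 to −0.0285 points. The inverse Simpson index outside the deletion differed by 0.489 in the opposite direction. With genes outside the deletion as the denominator or the members, the proximal share became −3.27, VH1 3.78 and VH8 0.0496 points, and, of the genes the text names, VH1-11 (−0.029), VH1-31 (−0.16), VH1-82 (−0.15), VH2-2 (−0.085), VH5-2 (−0.15) and VH5-4 (−0.065) turned. With every gene of any usage, 3 genes passed for the insertion as share. The causes were not tested.

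When single libraries were left out, the genes past the threshold ranged from 8 to 35 for P4 against the wild type as percent, from 4 to 27 for the insertion as percent and from 3 to 10 as share. The upstream sum ranged from −0.0886 to 0.156, the middle region from −0.281 to 1.37, VH3 from −0.0231 to 0.669, VH7 from −0.0727 to 0.0557 and VH9 from −0.123 to 0.0886 as percent, and VH14 from −0.159 to 0.0204 as share. Log2 changes ranged from −0.16 to 0.11 for VH1-11, from −0.051 to 0.17 for VH1-26 and from −0.29 to 0.055 for VH1-31 as percent and from −0.0026 to 0.28 for VH1-31 as share. For the insertion they ranged from −0.042 to 0.16 for VH5-4 as percent and from −0.18 to 0.27 for VH1-27 as share, and for P4 against P4V from −0.19 to 0.054 as percent and from −0.13 to 0.093 as share for VH1-47 and from −0.075 to 0.033 for VH1-11 as share. Among the genes the text names, and not over all genes, under alternatives that left out no library, 959 values kept their direction and their side of the threshold, 16 newly passed it, 31 no longer did and 6 turned. In the fits that left out a library, 843 values of these genes kept both, 28 newly passed the threshold, 87 no longer did and 14 turned. Depth is unknown, so that the counting error of little used genes is not known.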
